A study of Mus musculus with 9 samples.

Results

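The core loop of the circadian clock was followed through 10 genes (Arntl, Npas2, Clock, Cry1, Cry2, Per1, Per2, Per3, Nr1d1 and Nr1d2) in mouse submandibular salivary glands after surgery. The genes were listed by symbol, and each was matched through the table of probe genes for the platform to the transcript cluster with the highest mean, a transcript cluster being the set of probes that stands for the transcripts of a gene. All 10 were found among 22206 tested transcript clusters. The list was chosen by symbol with the earlier results of the comparison of day 14 resected with mock glands in view. In those results the measured differences of Arntl, Npas2 and Per3 were among the largest of named genes. The day 14 values and calls of these 10 genes are therefore given below as a description and are not read as a test. The comparison of day 3 resected with mock glands is the one tested for these 10 genes.

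RNA of whole glands was hybridised to Clariom S arrays, 3 biological replicates in each of 3 groups. All mice were female C57BL6/J of 12 weeks without a transgene named in the labels. The mock group had surgery without removal of gland tissue and healed for 3 days. In the other groups part of the gland was resected, and the mice healed for 3 or for 14 days. No mock glands of day 14 and no unoperated glands were analysed here, so at day 14 resection and time since surgery cannot be told apart. The mice were kept under alternating light and dark of 12 hours, and the time of day at which glands were taken is not given in the sources used here. A difference between groups in that time cannot be told apart from resection or healing time in any clock gene value below.

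The circadian clock is a feedback loop of transcription that runs in most cells. BMAL1, encoded by Arntl, pairs with CLOCK or with its relative NPAS2, and the pair binds E-box sequences and activates the Per, Cry and Nr1d genes. PER and CRY proteins return to the nucleus and block this activation, and the REV-ERB proteins encoded by Nr1d1 and Nr1d2 repress Arntl through elements that ROR proteins also bind. Salivary glands hold such a clock, which sets a daily rhythm in part of their expressed genes. In most peripheral tissues transcripts of Arntl and Npas2 peak at about the opposite time of day to those of Nr1d1, Nr1d2, Per3 and the output factor Dbp.

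Values are log2 levels on the scale the authors deposited. On this scale 337 tested transcript clusters exceeded 16, and the highest value was 19.93, so a log2 difference is not a calibrated fold change, and levels of different genes are not compared. No clock gene came near the upper end. Array medians lay between 5.09 and 5.24, and replicates correlated with each other at 0.985 or above. Of 8 serous acinar markers, Prol1, Pip and Car6 lay at the upper end of the scale on all arrays. Whole glands mix many cell types, so fewer cells of a type and less RNA per cell cannot be told apart in any value below.

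Promoter sequences were available for 9 of the 10 genes from RefSeq (GRCm38.p6), as windows of 300 bases from 250 before to 50 after a transcription start. They are shown for 4 genes of the loop because their letters carry the elements through which the loop is known to work. Capitals mark matches to CACGTG (the E-box), CACGTT (the E-prime box), AGGTCA (the core of the element shared by REV-ERB and ROR proteins), and TTATGTAA, TTACGTAA or TTATGCAA (D-boxes, bound by DBP, TEF, HLF and NFIL3), searched on both strands. TGACGTCA (the cAMP response element) was searched too. Where a gene has several windows, the one with matches is printed.
Arntl, chr7:113207261-113207560, plus strand: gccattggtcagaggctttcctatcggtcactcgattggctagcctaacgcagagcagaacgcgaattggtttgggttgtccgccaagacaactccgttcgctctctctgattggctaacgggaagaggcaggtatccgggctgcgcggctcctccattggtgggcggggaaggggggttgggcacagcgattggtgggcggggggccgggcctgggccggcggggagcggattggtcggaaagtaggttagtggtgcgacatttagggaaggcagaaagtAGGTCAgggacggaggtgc
Per3, chr4:151044616-151044915, minus strand: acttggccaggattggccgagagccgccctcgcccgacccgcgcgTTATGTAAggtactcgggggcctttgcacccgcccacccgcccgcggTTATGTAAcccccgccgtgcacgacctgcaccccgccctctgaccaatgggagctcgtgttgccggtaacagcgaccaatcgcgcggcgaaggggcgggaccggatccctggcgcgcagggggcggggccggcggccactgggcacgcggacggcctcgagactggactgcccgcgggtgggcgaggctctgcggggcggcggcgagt
Per1, chr11:69098699-69098998, plus strand: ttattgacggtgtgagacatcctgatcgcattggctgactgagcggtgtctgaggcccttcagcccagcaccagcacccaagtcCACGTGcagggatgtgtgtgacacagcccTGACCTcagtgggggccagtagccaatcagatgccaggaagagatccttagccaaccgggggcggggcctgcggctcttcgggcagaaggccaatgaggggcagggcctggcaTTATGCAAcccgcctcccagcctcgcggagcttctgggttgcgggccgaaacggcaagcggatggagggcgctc
Nr1d2, chr14:18239057-18239356, minus strand: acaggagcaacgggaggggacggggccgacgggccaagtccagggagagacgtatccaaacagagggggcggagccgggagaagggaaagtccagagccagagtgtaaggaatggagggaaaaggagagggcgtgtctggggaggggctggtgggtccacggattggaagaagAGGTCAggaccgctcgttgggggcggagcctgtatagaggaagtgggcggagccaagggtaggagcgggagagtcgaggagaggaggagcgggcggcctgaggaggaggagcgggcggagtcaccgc

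Of the 2 Arntl windows, the one printed holds the REV-ERB and ROR core 32 bases after the start and the other holds no match, and 16.3% of all 32851 promoter windows of this length hold this core. In the Per3 window a D-box begins 205 and another 158 bases before the start, where 1.78% of all windows hold any D-box. In 1 of its 2 windows Per1 combines an E-box 166 bases before the start, the REV-ERB and ROR core 137 bases and a D-box 24 bases before it, and its other window holds no match. One of the 3 Clock windows holds the REV-ERB and ROR core 119 bases before the start, and the Nr1d2 window holds the REV-ERB and ROR core 77 bases before the start. Cry1 holds an E-box and an E-prime box, and Cry2 and Nr1d1 each hold an E-prime box. E-boxes occurred in 7.15% and E-prime boxes in 4.68% of all windows. The Npas2 window held none of these letters, and the cAMP response element was in 0 of the 13 windows of the clock genes and 1.79% of all windows. These matches describe the windows and do not show that a factor is bound there.

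On day 3 no gene of the loop differed between resected and mock glands past the threshold. Of the 10 genes, 0 passed the threshold in either direction (limma, adjusted p under 0.05 over all tested transcript clusters), where 6.27% of all transcript clusters passed (4.92% higher and 1.36% lower), so a count of 0 among 10 is near the background and nothing particular to the loop is read from it. At an unadjusted limma p under 0.05 the count was also 0, against 4135 of all 22206 transcript clusters. Groups did not overlap for 0 of the 10, against 23.0% of all transcript clusters. The median size of the difference was 0.27 log2 for the 10 genes and 0.26 for all transcript clusters. Adjusted p-values of the 10 genes ran from 0.526 to 0.958. A p that misses the threshold does not show equal levels, and the 95% intervals given below bound the difference for each gene.

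At day 14 the activators stood higher than in mock glands and Per3, Nr1d2, Per1 and Per2 lower, without overlap of the groups in any of these. Of the 10 genes, 2 were past the threshold and higher (Arntl and Npas2) and 1 lower (Per3), where 0.153% of all transcript clusters passed (0.0991% higher and 0.0540% lower). Because this comparison chose the genes, nothing is read from that count. Groups did not overlap for 7 of the 10, against 13.0% of all transcript clusters, and the median size of the difference was 1.58 against 0.21.

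**Figure D1:**
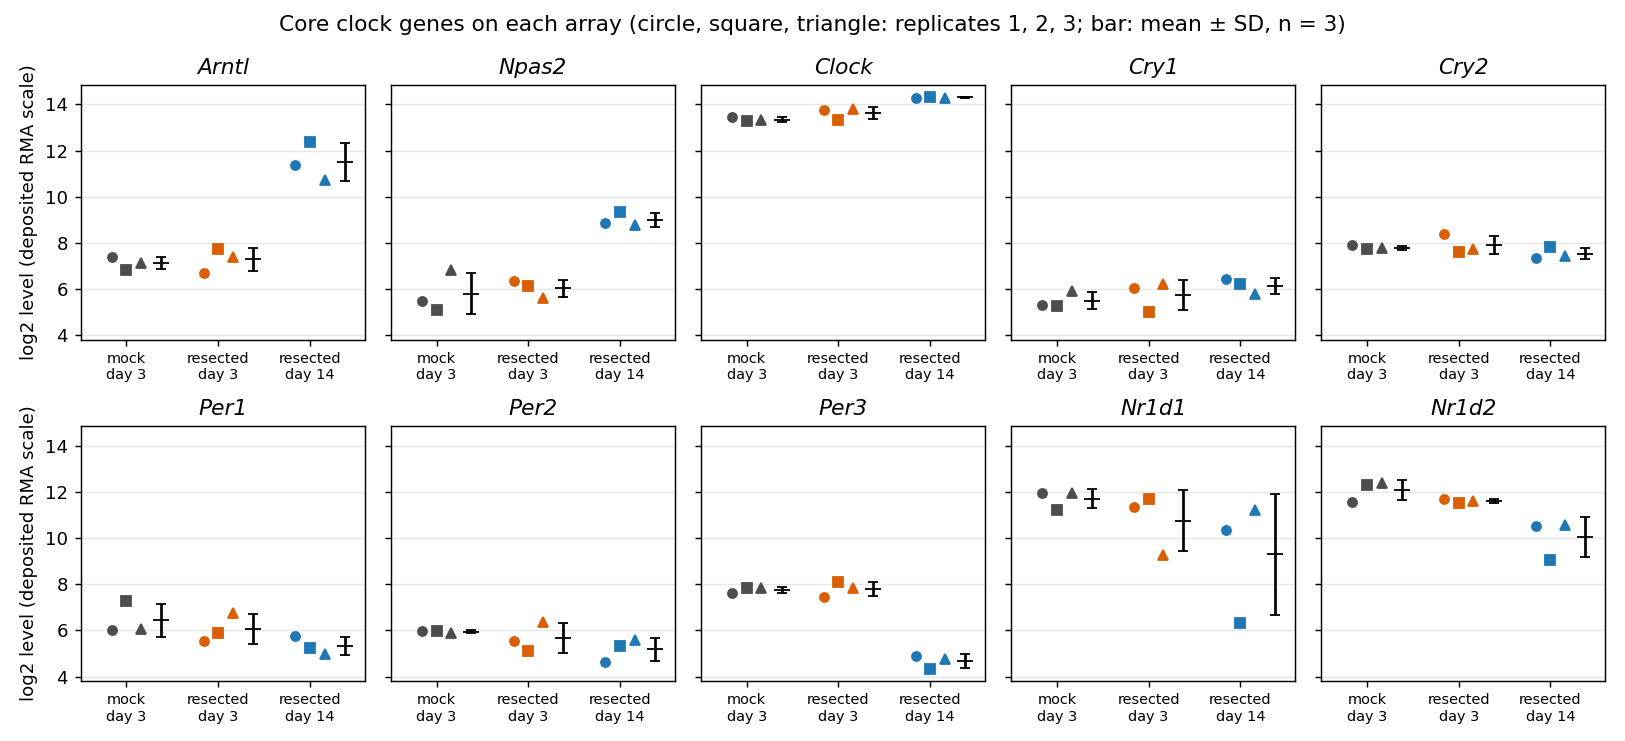
Log2 level of the 10 clock genes on each array, by group (mock day 3, resected day 3, resected day 14); circles, squares and triangles are replicates 1, 2 and 3, and bars give the mean ± SD (n = 3). Arntl and Npas2 are higher and Per3 lower on all 3 day 14 arrays than on any of the other 6, and Nr1d1 spreads from 6.31 to 11.23 at day 14; levels are comparable between groups of a gene, not between genes.

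Among the activators, Arntl, whose product BMAL1 is the partner that CLOCK and NPAS2 share, had log2 levels of 7.39, 6.85 and 7.13 on the mock arrays. The day 3 resected arrays gave 6.72, 7.73 and 7.41, and the day 14 arrays 11.39, 12.39 and 10.73. Every day 14 array lay far above the other 6, which overlapped each other. On those 6 arrays Arntl exceeded 84.8% to 92.0% of the 5222 negative control rows, so differences from them may be understated. The difference of day 3 resected from mock was 0.16 ± 0.38 (SE; 95% interval -0.66 to 0.98; limma adjusted p = 0.879). Day 14 resected exceeded mock by 4.38 ± 0.38 and day 3 resected by 4.22 ± 0.38.

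Npas2 encodes the relative of CLOCK that can replace it beside BMAL1. It had levels of 5.48, 5.11 and 6.81 on mock arrays, 6.35, 6.12 and 5.63 on day 3 resected arrays and 8.88, 9.36 and 8.79 on day 14 arrays. On the 6 mock and day 3 resected arrays it was dim, above 65.4% to 87.1% of the 5222 negative control rows, so differences from them may be understated. The day 14 arrays lay above all others, and mock replicate 3 stood apart from the other mock arrays. Day 3 resected differed from mock by 0.23 ± 0.38 (95% interval -0.58 to 1.05; limma adjusted p = 0.814). Without mock replicate 2 that difference was -0.11, and without mock replicate 3 it was 0.74. The difference of day 14 resected was 3.21 ± 0.38 from mock and 2.97 ± 0.38 from day 3 resected.

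Clock encodes the usual partner of BMAL1. Its levels were 13.46, 13.26 and 13.31 in mock glands, 13.75, 13.31 and 13.82 in day 3 resected glands and 14.29, 14.34 and 14.27 in day 14 glands. The day 14 arrays were tightly grouped and above all others, while the 2 day 3 groups overlapped. Day 14 resected exceeded mock by 0.96 ± 0.21 and day 3 resected by 0.67 ± 0.21, neither past the threshold. With trended variances both passed, and after quantile normalisation the second did. The day 3 difference from mock was 0.28 ± 0.21 (95% interval -0.16 to 0.73; limma adjusted p = 0.526).

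The cryptochromes, the repressors that bind the activator pair directly, showed no separation of groups. Cry1 had levels of 5.32, 5.26 and 5.94 on mock arrays, 6.07, 5.02 and 6.21 on day 3 resected arrays and 6.42, 6.24 and 5.77 on day 14 arrays. All 3 groups overlapped, with day 14 at 0.64 ± 0.32 from mock and 0.38 ± 0.32 from day 3 resected. Cry1 was dim, above 55.0% to 81.4% of the negative control rows. Cry2 had 7.90, 7.72 and 7.77 on mock arrays, 8.37, 7.62 and 7.74 on day 3 resected arrays and 7.35, 7.81 and 7.43 on day 14 arrays. Its day 14 difference from mock was -0.27 ± 0.24, of opposite sign to that of Cry1. On day 3 the differences from mock were 0.26 ± 0.32 for Cry1 (95% interval -0.44 to 0.96; limma adjusted p = 0.745) and 0.11 ± 0.24 for Cry2 (95% interval -0.41 to 0.64; limma adjusted p = 0.861). The value for Cry1 was 0.63 without day 3 resected replicate 2 and 0.04 without replicate 3 of that group, where day 14 against day 3 resected was 0 and 0.60. The sign for Cry2 turned to -0.12 without day 3 resected replicate 1.

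The period genes, whose products form the repressor complex with the cryptochromes, differed among themselves. Per3 had levels of 7.62, 7.82 and 7.82 on mock arrays, 7.45, 8.08 and 7.84 on day 3 resected arrays and 4.90, 4.32 and 4.76 on day 14 arrays. The day 14 arrays lay far below the other 6, at -3.09 ± 0.23 from mock and -3.13 ± 0.23 from day 3 resected. At that level Per3 exceeded only 45.7% to 56.0% of the negative control rows on the same arrays, against 90.3% to 93.5% on the other 6, so the day 14 level was not told apart from background and the true difference may be larger. The day 3 difference was 0.04 ± 0.23 (95% interval -0.47 to 0.55; limma adjusted p = 0.958).

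Per1, which also responds acutely to hormones and light, had 6.0, 7.27 and 6.07 on mock arrays, 5.52, 5.88 and 6.76 on day 3 resected arrays and 5.74, 5.23 and 4.98 on day 14 arrays. The day 14 arrays lay below the mock arrays but overlapped those of day 3 resected glands. Mock replicate 2 was well above the other mock arrays. The difference of day 14 from mock was -1.13 ± 0.38, and -0.71 without mock replicate 2. On day 3 the difference was -0.39 ± 0.38 (95% interval -1.22 to 0.44; limma adjusted p = 0.655), and 0.02 without mock replicate 2.

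Per2 had 5.99, 5.96 and 5.90 on mock arrays, 5.55, 5.09 and 6.37 on day 3 resected arrays and 4.63, 5.31 and 5.59 on day 14 arrays. Mock arrays nearly coincided and lay above all day 14 arrays, while the day 3 resected arrays spanned both. Day 14 differed from mock by -0.78 ± 0.32 and from day 3 resected by -0.50 ± 0.32. The day 3 difference was -0.28 ± 0.32 (95% interval -0.98 to 0.42; limma adjusted p = 0.715). Both Per1 and Per2 were dim, above 50.3% to 90.9% of the negative control rows over all arrays.

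Among the REV-ERB genes, Nr1d2 had levels of 11.56, 12.31 and 12.36 on mock arrays, 11.70, 11.50 and 11.60 on day 3 resected arrays and 10.52, 9.06 and 10.58 on day 14 arrays. The day 14 arrays lay below all others, replicate 2 farthest. Day 14 differed from mock by -2.03 ± 0.37 and from day 3 resected by -1.55 ± 0.37. Without day 14 replicate 2 the difference from mock was -1.53 and that from day 3 resected -1.06. On day 3 the difference was -0.48 ± 0.37 (95% interval -1.27 to 0.32; limma adjusted p = 0.553).

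Nr1d1 was the least uniform gene of the loop in both resected groups. It had 11.95, 11.22 and 11.94 on mock arrays, 11.33, 11.67 and 9.26 on day 3 resected arrays and 10.34, 6.31 and 11.23 on day 14 arrays. Day 3 resected replicate 3 and day 14 replicate 2 stood far below the others of their groups, and all 3 groups overlapped. Its SD was 0.41 in mock, 1.30 in day 3 resected and 2.62 in day 14 glands, and at day 14 only 6 of 22206 transcript clusters had a larger SD (36 in day 3 resected and 6142 in mock glands). In mock glands the SDs of Npas2 (0.89), Per1 (0.72) and Nr1d2 (0.45) were larger. Day 14 differed from mock by -2.41 ± 0.98, and by -0.92 without day 14 replicate 2. The day 3 difference was -0.95 ± 0.98 (95% interval -3.07 to 1.17; limma adjusted p = 0.676), and -0.20 without day 3 resected replicate 3.

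**Figure D2:**
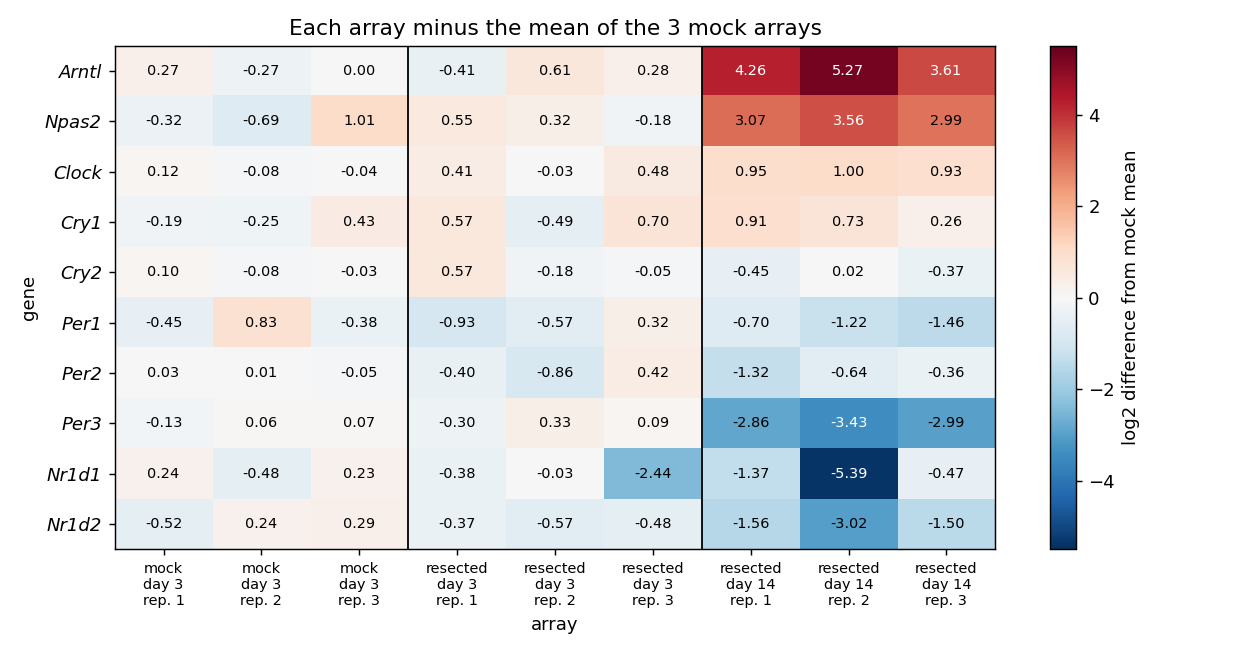
Log2 level of each clock gene on each array minus the mean of the 3 mock arrays, with red higher and blue lower; columns are arrays by group and replicate. The day 14 columns are red for Arntl and Npas2 and blue for Per3, Nr1d1 and Nr1d2, and day 14 replicate 2 is the most extreme for Arntl, Npas2, Nr1d1 and Nr1d2.

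Among the 3 day 14 glands, replicate 2 lay farthest from mock for Arntl, Npas2, Nr1d1 and Nr1d2. It was the highest of the 3 for Arntl, at 5.27 above the mock mean, and for Npas2, at 3.56. It was the lowest for Nr1d1, at -5.39, and for Nr1d2, at -3.02. The order within Per3 is not read, since its day 14 levels were at background. Replicate 3 had the smallest rise of Arntl, at 3.61, and the smallest shift of Nr1d1 and Nr1d2, at -0.47 and -1.50. Per1 and Per2 did not keep that order: Per1 was lowest in replicate 3, at -1.46, and Per2 in replicate 1, at -1.32. Clock lay at 0.93 to 1.00 above the mock mean. The day 14 SD of Arntl was at the percentile 98.8 of all transcript clusters and that of Nr1d2 at 98.9, while those of Npas2 (59.8) and Clock (1.8) were ordinary or small.

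Within day 3 resected glands a different gland stood out. Replicate 3 had Nr1d1 at -2.44 from the mock mean together with the highest Per1 and Per2 of its group, at 0.32 and 0.42, while Arntl was 0.28 and Nr1d2 was -0.48. The SDs of Nr1d1, Cry1 and Per2 in that group were at percentiles 99.8, 95.3 and 95.1 of all transcript clusters. That of Nr1d2 was at 11.5, so the spread within the group was not shared by all genes of the loop.

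**Figure D3:**
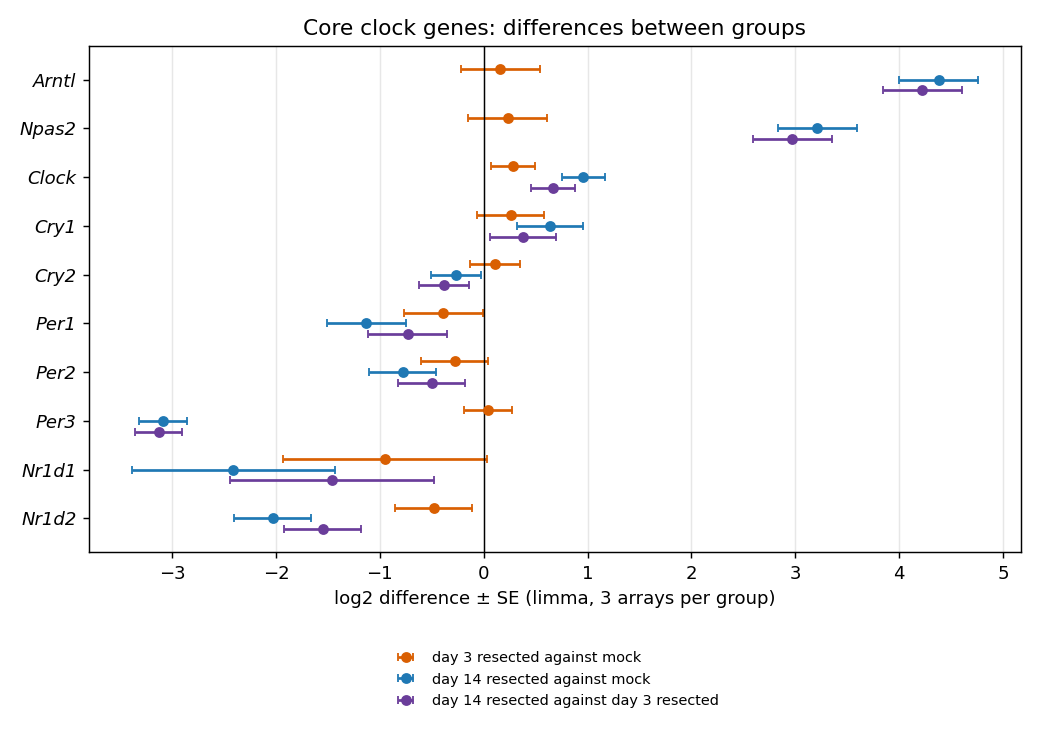
Log2 difference ± SE of each clock gene in the 3 comparisons (limma, 3 arrays per group; orange, day 3 resected against mock; blue, day 14 resected against mock; purple, day 14 resected against day 3 resected). Orange points lie between -0.95 and 0.28, while blue points run from -3.09 for Per3 to 4.38 for Arntl; blue and purple points share the day 14 arrays.

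Against day 3 resected glands, each of the 10 genes differed at day 14 in the same direction as against mock glands, with the day 14 arrays shared by both comparisons. Past the threshold, 2 genes were higher (Arntl and Npas2) and 2 lower (Per3 and Nr1d2), where 6.28% of all transcript clusters passed (1.40% higher and 4.88% lower). Since the day 14 arrays took part in choosing the genes, nothing is read from this count. Groups did not overlap for 5 of the 10, against 25.4% of all transcript clusters. Per1 and Per2, apart from mock at day 14, overlapped day 3 resected. Nr1d2 passed here and not against mock, though its difference was larger from mock (-2.03 ± 0.37) than from day 3 resected (-1.55 ± 0.37). The adjustment is stricter against mock, where only 0.153% of all transcript clusters passed. Nr1d2 was no longer past the threshold without any 1 of the day 3 resected arrays or without day 14 replicate 2. For Nr1d1 the difference was -1.46 ± 0.98, and 0.03 without day 14 replicate 2.

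A wider list of 68 genes around the loop, of which 60 were measured, was examined beside the 10. It holds ROR receptors, further regulators at E-boxes, D-box factors, kinases, ubiquitin ligases, co-regulators, outputs and inputs of the clock. On day 3, 5 of the 60 were higher after resection and 0 lower (8.33%, against 6.27% of all transcript clusters). At day 14, 6 were lower than in mock and 0 higher (10.0%, against 0.153%). Dbp, Usp2, Ciart, Bhlhe41 and Rbm3 among these 6 were known from earlier results, so they carry no independent evidence. The day 14 count was 2 without day 14 replicate 2 and 3 without mock replicate 1. Against day 3 resected glands, 1 was higher and 11 lower at day 14 (20.0%, against 6.28%). The 11 include the same 5 genes known from earlier results of the day 14 arrays. They also include Timeless, Tipin, Wee1, Tspan4 and Cdkn1a, which were the 5 higher on day 3. Nothing about the clock is therefore read from this count.

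The D-box factors, which the loop drives and which act on D-boxes, the letters found in the Per3 window, include the activators Dbp, Tef and Hlf and the repressor Nfil3. Dbp had 16.39, 15.69 and 15.28 on mock arrays, 15.49, 15.76 and 15.05 on day 3 resected arrays and 8.80, 7.29 and 8.75 on day 14 arrays. It lay at -7.50 ± 0.40 from mock at day 14, with replicate 2 lowest as for Nr1d2. Tef fell from 5.12 ± 0.31 (SD, n = 3) in mock to 3.36 ± 0.32 at day 14, a difference of -1.76 ± 0.25 (limma adjusted p = 0.0102). The call for Tef ended without mock replicate 1 or day 14 replicate 2 or 3 (adjusted p 0.0609 to 0.0797), and its levels were near those of the negative controls, whose medians were 4.41 to 4.77. Hlf did not pass: at means of 3.50 in mock, 2.85 in day 3 resected and 3.20 in day 14 glands, all under those medians, it was at -0.30 ± 0.23 from mock (limma adjusted p = 0.778) and at 0.34 ± 0.23 from day 3 resected at day 14 (limma adjusted p = 0.477).

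Nfil3, which represses through the same D-boxes, went the other way. It had 5.73, 8.98 and 7.67 on mock arrays, 6.29, 6.25 and 7.00 on day 3 resected arrays and 9.44, 10.12 and 9.60 on day 14 arrays. Its day 14 arrays lay above all others, again with replicate 2 the highest. Not every gene of the wider list had its most extreme day 14 level in replicate 2. Usp2 was lowest in replicate 1 (5.63, against 5.83 in replicate 2), and Ciart was highest in replicate 2 (4.06). Tef, Bhlhe41 and Rbm3 were lowest in replicate 2. Nfil3 rose by 3.21 ± 0.59 from day 3 resected to day 14 (limma adjusted p = 0.00461). Against mock the difference was 2.26 ± 0.59 and did not pass (limma adjusted p = 0.252), with mock arrays spread widely. Without mock replicate 2 it was 3.02 and passed (limma adjusted p = 0.0464). On day 3 Nfil3 was at -0.95 ± 0.59 from mock, and at -1.81 without mock replicate 1, where it passed (limma adjusted p = 0.0186).

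Other regulators at E-boxes did not all follow one time course. The repressors Ciart and Bhlhe41 were at -1.90 ± 0.27 and -1.85 ± 0.25 from mock at day 14, and at -1.66 ± 0.27 and -1.77 ± 0.25 from day 3 resected. Against mock the Ciart call ended without mock replicate 1 or 2 or any 1 day 14 array (limma adjusted p 0.0501 to 0.0829), and that of Bhlhe41 without day 14 replicate 2 (limma adjusted p = 0.0631). Ciart at day 14, at 3.76 to 4.06, lay under the medians of the negative controls. Bhlhe40, the relative of Bhlhe41, differed by -1.16 ± 0.31 and did not pass (limma adjusted p = 0.272). Timeless and its partner Tipin, which also protect replication forks, instead rose on day 3, by 2.69 ± 0.30 (limma adjusted p = 1.6e-04) and 1.73 ± 0.31 (limma adjusted p = 0.00385). By day 14 they had fallen again by 3.14 ± 0.30 and 1.84 ± 0.31 from day 3 resected (limma adjusted p = 4.2e-05 and 0.00229). Timeless in mock glands (3.94 to 4.80) and day 14 glands (3.80 to 4.12) lay near the negative controls, so its differences may be understated.

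Among the outputs, the mitosis inhibitor kinase Wee1, the cell cycle inhibitor Cdkn1a and the tetraspanin Tspan4 were higher on day 3, by 1.80 ± 0.46, 2.87 ± 0.40 and 1.09 ± 0.29 (limma adjusted p = 0.0335, 7.9e-04 and 0.0404). The calls of Wee1 and Tspan4 were lost without any 1 of several arrays: Wee1 without any 1 day 3 resected array or day 14 replicate 1, and Tspan4 without any 1 day 14 array, day 3 resected replicate 2 or 3, or mock replicate 1 or 3, and also after quantile normalisation and with the replicate block (limma adjusted p = 0.0695 and 0.0544). With only the groups compared, neither passed. From day 3 resected to day 14 all 3 fell, by 3.29 ± 0.46, 2.69 ± 0.40 and 2.48 ± 0.29 (limma adjusted p = 6.0e-04, 0.00107 and 1.4e-04). Against mock none of the 3 passed at day 14, but Tspan4 (mean 6.59 against 7.99) lay below all mock arrays. The mean of Wee1 was 8.67 against 10.16 in mock, with overlap. Without mock replicate 3, Wee1 was at -2.18 from mock and passed (limma adjusted p = 0.00652). Markers of dividing cells moved with Timeless, Tipin, Wee1 and Cdkn1a: 5 of 5 measured were higher on day 3, against 4.92% of all transcript clusters. Their summed log2 level was 29.31 to 38.49 in mock, 51.02 to 57.11 in day 3 resected and 28.01 to 29.15 in day 14 glands. This course was not particular to dividing cells. Of 6 macrophage markers 6 were higher on day 3 and 6 lower from day 3 resected to day 14, and of 4 fibroblast markers 3 and 2. Markers of granular convoluted tubules went the other way, with 4 of 4 lower on day 3 and 3 then higher. The part of these cell types in the 4 genes was not tested.

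Among enzymes that modify clock proteins, Usp2 alone passed, in both day 14 comparisons, and it was known from earlier results. Of 13 kinases and phosphatases, 0 passed in any of the 3 comparisons by limma. Of all transcript clusters 6.27%, 0.153% and 6.28% passed, so nothing is read from that count. The median differences of the 13 were -0.02, 0.04 and -0.07. An unadjusted limma p under 0.05 was found for 2, 2 and 0 of the 13, against 4135, 1817 and 4191 of all 22206 transcript clusters. The kinase Csnk1e, which marks PER proteins for degradation, was at -0.72 ± 0.20 from mock at day 14 without overlap of the groups (limma adjusted p = 0.299). Of 10 ubiquitin ligases and deubiquitinases, only Usp2 passed at day 14, at -2.40 ± 0.34 from mock. That call ended without mock replicate 1 or day 14 replicate 1 or 2 (limma adjusted p 0.0609 to 0.0899). The ROR receptor Rora, which activates Arntl at the element that REV-ERB proteins occupy, differed by -0.54 ± 0.22 on day 3 (limma adjusted p = 0.196) and by 0.43 ± 0.22 between the resected groups (limma adjusted p = 0.312). The cold-inducible Rbm3 was at -1.86 ± 0.24 from mock at day 14.

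**Figure D4:**
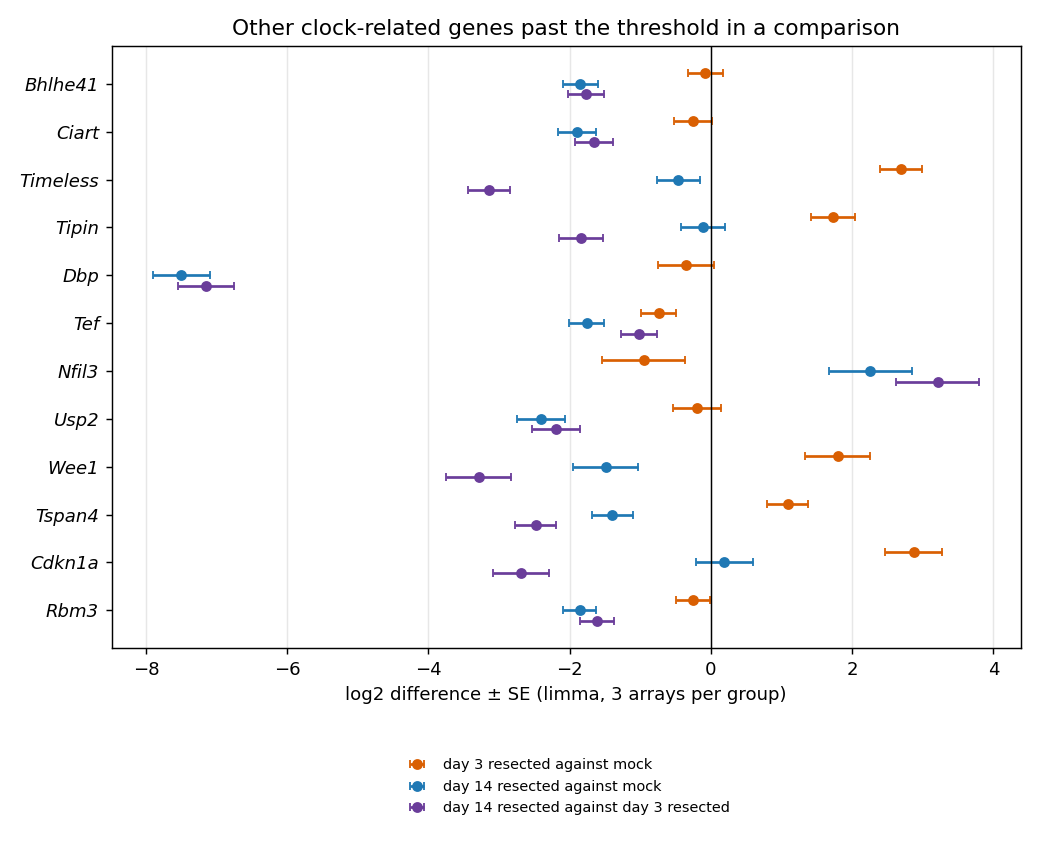
Log2 difference ± SE (limma, 3 arrays per group) of the 12 genes of the wider clock list that passed the threshold in a comparison; colours as for the plot of differences of the 10 clock genes. Dbp, Tef, Usp2, Ciart, Bhlhe41 and Rbm3 are lower at day 14 against both other groups, Nfil3 is higher, and Timeless, Tipin, Wee1, Tspan4 and Cdkn1a are higher on day 3 resected arrays.

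The genes whose profiles came closest to those of Arntl and Per3 were sought among 18579 named transcript clusters, by the root mean square difference between profiles centred on their own mean over the 9 arrays. For Arntl, whose own profile has a root mean square of 2.08, the closest were Retnla (1.17), Sema4g (1.18), Slc23a2 (1.27), Cldn1 (1.27) and Nfil3 (1.31). Closest to the Arntl profile with its sign turned were Usp2 (1.08), Neil3 (1.22), Bhlhe41 (1.25), Rbm3 (1.28) and Idi1 (1.31). For Per3, with a root mean square of 1.48, the closest were Usp2 (0.64), Bhlhe41 (0.66), Rbm3 (0.69), Idi1 (0.70) and Neil3 (0.71), and with the sign turned Slc23a2 (0.67), Retnla (0.68), Sema4g (0.70), Pnrc1 (0.71) and Cldn1 (0.73). Neil3 and Pnrc1 differ from the clock genes in that their day 3 resected arrays did not overlap the mock arrays. Those of Neil3, at 7.51 to 8.17, lay above mock, at 6.08 to 6.22. Those of Pnrc1, at 12.14 to 12.75, lay below mock, at 13.09 to 13.57. The distances are sizeable beside the profiles themselves, so the likeness is loose.

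Markers of other cell types were set beside these results. On day 3, 17 of 67 measured markers were higher and 9 lower, where 4.92% of all transcript clusters were higher and 1.36% lower. All 6 measured macrophage markers were among the higher. In the comparison of day 14 with mock, 0 of 67 markers passed by limma. Only 0.153% of all transcript clusters passed there, so nothing is read from that count. An unadjusted limma p under 0.05 was found for 8 of the 67 markers and for 1817 of all 22206 transcript clusters. The summed log2 levels of some lists did not overlap between day 14 and mock glands, which was not tested. Fibroblast markers were at 51.98 to 55.00 against 48.04 to 51.14 in mock glands. Those of dividing cells were at 28.01 to 29.15 against 29.31 to 38.49, a narrow gap. Of the latter, Mki67 was at -2.25 ± 0.59 and Top2a at -1.78 ± 0.38 from mock (limma adjusted p = 0.257 and 0.137). Cdk1, Mcm5 and Mcm6 overlapped mock (limma adjusted p = 0.667, 0.734 and 0.743). Macrophage markers overlapped, at 50.44 to 52.99 against 45.15 to 50.66. Dcpp3, the 1 measured of 4 markers of mucous cells of the sublingual type, was at 17.06, 19.71 and 14.05 on day 14 arrays and at 6.28, 8.17 and 5.80 on mock arrays. On day 3 resected arrays it was at 16.70, 7.80 and 19.69. The part of these cell types in the clock gene values was not tested.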

How the data were processed

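The authors deposited log2 levels per transcript cluster of Clariom S mouse arrays, made with Transcriptome Analysis Console 4.0, per the design text in the labels, and RMA, per the submitters' processing notes; the genome build is not given in the sources used here. Controls (6640 of 28846 rows) were left out, and 22206 transcript clusters were tested, 19572 of them with a gene symbol. Symbols are RefSeq names (GRCm38.p6) found through the Entrez identifier. All 9 arrays entered 1 linear model with a mean per group in limma 3.58.1 (R 4.3.3), with moderated variances (6 residual and 6.63 prior degrees of freedom) and two-sided p-values adjusted by Benjamini and Hochberg over all transcript clusters at 0.05. The number of arrays limits the precision. The method was tested on simulated data. Members and lists were chosen with earlier results of these data known. Named genes are the 10 clock genes, the genes of the wider list past the threshold (up to 6 per comparison by size), 5 closest profiles each, and markers beside a result. Alternatives were quantile normalisation, median centring, a filter on the dimmest 30%, only the groups compared, array weights, trended or robust variances, a replicate block, and each array left out. Another transcript cluster per symbol could not be tried, as each of the 10 genes has only 1. Same-numbered arrays deviated with correlations of -0.087 to 0.051, so the numbers do not pair the arrays.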

Additional observations from a re-analysis of the deposited data

Results flagged for a closer look

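In 7 genes of the wider clock list, other than those known from earlier results, the difference from mock at day 14 differed from that on day 3 (limma, all arrays in 1 model; the mock arrays cancel, so the value is day 14 resected minus day 3 resected). Timeless (-3.14), Tipin (-1.84), Wee1 (-3.29), Tspan4 (-2.48) and Cdkn1a (-2.69) were lower at day 14 than on day 3. Tef was lower at -1.02, a call that ended without day 3 resected replicate 1 or 2 or day 14 replicate 2 or 3. Nfil3 was higher at 3.21.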

How the results depend on the processing

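Of the 10 clock genes, 0 passed on day 3 under any alternative tried. At day 14 against mock 3 passed without any 1 array, 4 with median centring or robust variances (Nr1d2 added) and 5 with trended variances (3 higher and 2 lower; Clock and Nr1d2 added). Against day 3 resected 3 to 4 passed without any 1 array, and 5 with quantile normalisation or trended variances (Clock added). The day 14 arrays took part in choosing the 10 genes. Steady day 14 counts of these genes, here and with the replicate block, are therefore no support for their differences. Over all transcript clusters the counts without any 1 array were 850 to 1307 on day 3, 20 to 58 at day 14 against mock and 874 to 1429 between the resected groups. Leaving out day 3 resected replicate 3 gave 850 and 874. At day 14 against mock the count was 20 without day 14 replicate 2, 22 without day 14 replicate 3 and 58 without mock replicate 3. Trended variances gave 56 at day 14 against mock. Of the wider list, 3 to 5 passed on day 3 without any 1 array, 2 to 7 at day 14 and 11 to 12 between the resected groups, and 3 passed on day 3 with only the groups compared. The causes were not tested.

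The replicate numbers did not pair the arrays (2 of 9 arrays correlated best with their own number). With the replicate block, 1283, 26 and 1297 transcript clusters and 0, 3 and 4 of the clock genes passed in the 3 comparisons. Scaling moved the split of all calls: day 3 gave 1092 higher and 301 lower as deposited, 973 and 452 after quantile normalisation, and 1013 and 480 after median centring. Between the resected groups the split was 310 higher and 1084 lower as deposited, 433 and 930 after quantile normalisation, and 431 and 1031 after median centring.

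Small day 3 differences changed sign. Without any 1 array, the day 3 differences ran from -0.06 to 0.44 for Arntl, -0.11 to 0.74 for Npas2, -0.12 to 0.26 for Cry2, -0.75 to 0.02 for Per1, -0.63 to 0.01 for Per2, -0.11 to 0.21 for Per3, -0.27 to 0.19 for Bhlhe41 and -0.63 to 0.17 for Usp2. The sign turned without mock replicate 2 for Npas2, Per1, Bhlhe41 and Usp2, without day 3 resected replicate 2 for Arntl, Per2 and Per3, without day 3 resected replicate 1 for Cry2, and without mock replicate 1 for Per3 (-0.03). After quantile normalisation Cry2 was -0.01 and Per3 -0.08, and after median centring Per3 was -0.03. At day 14 against mock Tipin ran from -0.41 to 0.18 (0.14 without day 14 replicate 3) and Cdkn1a from -0.03 to 0.57. Between the resected groups Nr1d1 ran from -2.43 to 0.03, the last without day 14 replicate 2. Genes limited by background included Per3 and Ciart at day 14, Npas2 on day 3, and Cry1, Per1, Per2, Tef and Hlf throughout. Arntl may be limited too on the mock and day 3 resected arrays, at 84.8% to 92.0% of the negative control rows. Timeless in mock and day 14 glands was limited too, and Nr1d1 on day 14 replicate 2 exceeded only 81.7% of the negative control rows.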
